A study of Homo sapiens with 9 samples.

Results

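The 10 genes followed here encode, or are copied from, enzymes that make asparagine, serine, glycine, one-carbon units and proline, and were measured in HEK293T, an established cell line from human embryonic kidney. They are ASNS and its pseudogene ASNSP1, the serine enzymes PHGDH, PSAT1 and PSPH, the mitochondrial glycine and folate enzymes SHMT2, MTHFD2 and ALDH1L2, and the proline enzymes PYCR1 and ALDH18A1. These 10 genes were chosen by name among the 57500 genes counted. They and the pathway lists used below were chosen with earlier results of these data known. Shares of all genes set beside them are therefore descriptions and not a test of the set. Cells received 10 µM HBC530, 10 µM MsOc3HBC or the vehicle DMSO for 5 h, with 3 biological replicates of each, and poly(A)-selected RNA was sequenced. HBC530 is a fluorogenic ligand that the Pepper RNA aptamer holds without a covalent bond. MsOc3HBC is built on the same HBC scaffold and carries a mesyloxy-propyl handle that can alkylate RNA. Vehicle was the control for both ligands, so the 2 comparisons with DMSO share their control libraries. The methods name no aptamer construct for these RNA-seq cells and no genotype other than that of the line, which was not authenticated.

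Asparagine synthetase (ASNS) makes asparagine from aspartate and glutamine. Serine is made from a glycolytic intermediate by PHGDH, PSAT1 and PSPH in turn, SHMT2 then splits serine into glycine and a folate-bound one-carbon unit in mitochondria, and MTHFD2 and ALDH1L2 oxidise that unit. ALDH18A1 and PYCR1 catalyse the first and the last step from glutamate to proline. Many of these genes are known targets of ATF4, a transcription factor that is translated preferentially when eIF2 alpha is phosphorylated, for example during amino acid shortage or endoplasmic reticulum stress. ATF4 and its C/EBP partners bind composite elements of the form TGATGNAA, and the element of the ASNS promoter is a classical example.

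The sequences upstream of 4 enzyme genes are shown because these genes bracket the responses described here: ASNS, PSAT1 and MTHFD2 were the protein-coding members furthest above DMSO with MsOc3HBC, and ALDH18A1 was the only member below DMSO with either ligand. Each run is the 100 bases before an annotated start in RefSeq GRCh38.p14, written 5′ to 3′ on the strand of the gene. ASNS has another annotated start, and the run before it (chr7:97872166-97872265) is not shown and holds no TGATGNAA. Capitals mark TGATGNAA. The runs lie at chr7:97872409-97872508 (minus strand), chr9:78297025-78297124 (plus), chr2:74198515-74198614 (plus) and chr10:95656712-95656811 (minus), in the order printed.
ASNS: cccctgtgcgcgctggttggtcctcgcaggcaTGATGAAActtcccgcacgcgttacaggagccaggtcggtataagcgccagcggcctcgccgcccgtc
PSAT1: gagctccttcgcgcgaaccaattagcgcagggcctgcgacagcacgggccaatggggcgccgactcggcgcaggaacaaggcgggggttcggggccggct
MTHFD2: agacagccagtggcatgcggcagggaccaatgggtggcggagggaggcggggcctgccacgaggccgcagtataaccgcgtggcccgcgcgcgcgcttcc
ALDH18A1: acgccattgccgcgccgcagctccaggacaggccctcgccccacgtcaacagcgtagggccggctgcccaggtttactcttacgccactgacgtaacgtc

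RefSeq windows from 250 bases before to 50 bases after the start were at hand for 5 of the members, ASNS with 2 starts and PHGDH, PSAT1, MTHFD2 and ALDH18A1 with 1 each. TGATGNAA, searched on both strands, was found in 1 of these 6 windows, that of ASNS, at bases -68 to -61 from the start. The same letters were found in 3.62% of all 35116 promoter windows of that length. TGATGCAA, a special case of the first motif, was in none of the 6 and in 0.866% of all windows. A match is a string of letters and not evidence of binding, and the absence of one says only that these letters are not in this window.

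The 9 libraries held between 28056929 and 62205366 counts on genes, with the lowest total in replicate 3 of MsOc3HBC. In a principal component analysis of 18041 genes, the third replicates of HBC530 and MsOc3HBC (36.9 and 48.8 on component 1) stood apart from the other 7 libraries (-20.3 to -4.28). The markers of the line, VIM, KRT8, KRT18 and LIN28B, had at least 1760 counts in every library, and PAX2 had 56 to 238. Scaled for library size, PAX2 was lower in all MsOc3HBC libraries than in all others. Its log2 fold change with MsOc3HBC was -0.48 against DMSO (edgeR adjusted p = 0.350) and -0.44 against HBC530 (edgeR adjusted p = 0.643). Among markers of other cell types, PTPRC, CD3E, DCN, ALB and PECAM1 had at most 6 counts in a library. LUM had 21 to 54 and COL1A1 519 to 2067, and neither of them differed at an adjusted p under 0.05 in edgeR's unpaired tests. In bulk RNA of this kind, a change in the number of cells of a type and a change in RNA per cell cannot be told apart.

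Levels of the 10 genes are given in counts per 1000000 (CPM) scaled with TMM factors over the 9 libraries, and compared between genes only as CPM per kilobase of exonic length. On that per-kilobase scale the vehicle-treated cells held most PSAT1 (140.3 ± 6.37, SD, n = 3) and PHGDH (114 ± 10.8), followed by SHMT2 (79.9 ± 3.31), PYCR1 (73.6 ± 5.04) and ALDH18A1 (72.8 ± 2.15). MTHFD2 (43.8 ± 1.92) and ASNS (38.8 ± 2.18) came next, then PSPH (10.1 ± 0.501), ALDH1L2 (4.09 ± 0.332) and ASNSP1 (0.372 ± 0.0166). The neighbours SHMT2 and PYCR1, and PYCR1 and ALDH18A1, overlapped between libraries, whereas the other neighbours in this order did not. Averaged over all 9 libraries, the 7 most abundant members lay at or above 94.6% of the 18041 genes kept on this scale, PSPH above 77.2%, ALDH1L2 above 61.4% and ASNSP1 above 31.7%.

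**Figure D1:**
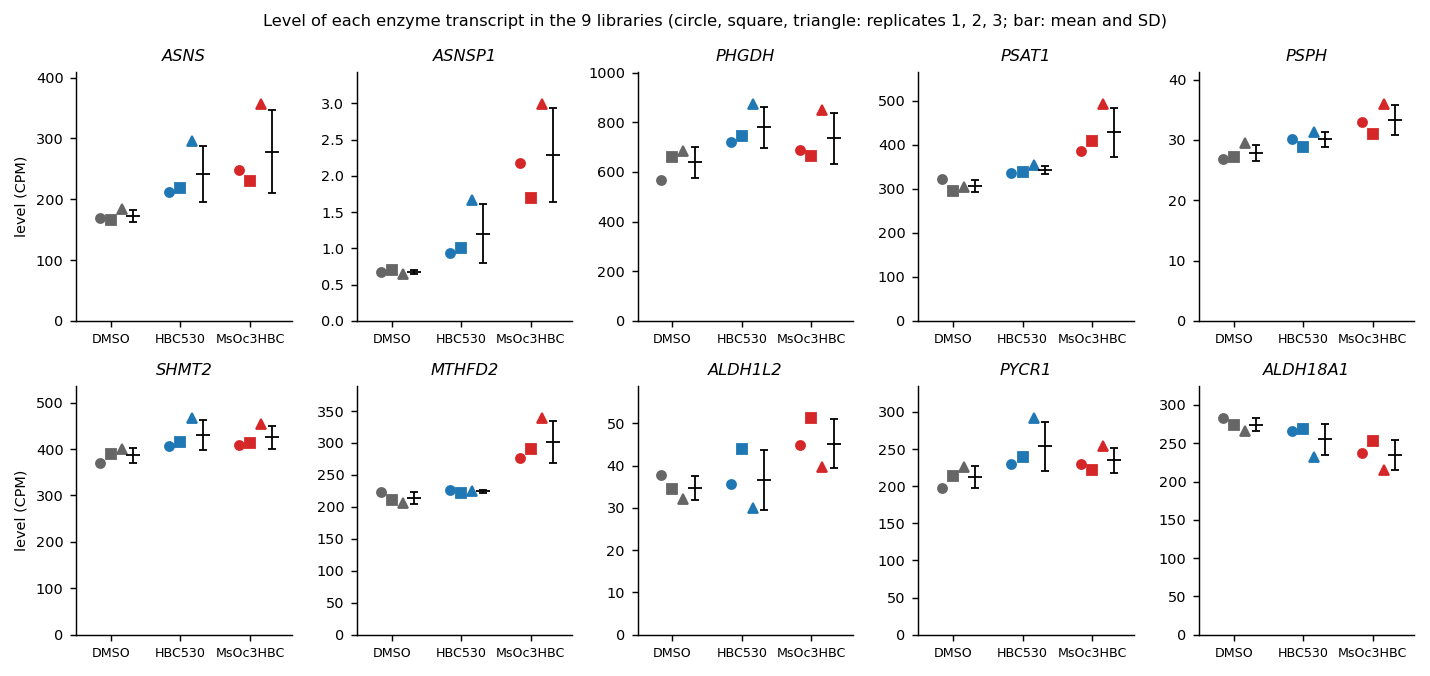
Levels in CPM (vertical axes, each starting at 0) of the 10 genes in 3 DMSO, 3 HBC530 and 3 MsOc3HBC libraries, with circles, squares and triangles for replicates 1 to 3 and a black bar for the mean and SD. ASNSP1, PSAT1 and MTHFD2 show all MsOc3HBC libraries above all others, and replicate 3 of the ligands is often the highest point.

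To find out whether either ligand moved these genes, each was compared with DMSO, 3 libraries against 3, with the quasi-likelihood test of edgeR, adjusted over all genes by the Benjamini-Hochberg method. With HBC530, 0 of the 10 passed an adjusted p of 0.05, against 0.017% of the 17684 genes tested, and 0 passed with DESeq2 against 0.136%. The looser threshold of the study's methods was an adjusted p below 0.5 together with a log2 change above 1 in size. The study used DESeq2, whereas the threshold was applied here to the edgeR fit, where 0 members and 0.0226% of genes passed it. At an unadjusted p under 0.05 there were 4 members (ASNS, ASNSP1, PHGDH and PYCR1), all higher, against 5.07% of genes. The 3 HBC530 libraries lay clear of the 3 DMSO libraries for 6 members, all higher, against 13.8% of genes in either direction. The median log2 fold change of the 10 was 0.16, beside 0.0046 for all genes tested.

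With MsOc3HBC, 1 of the 10 rose at an adjusted p of 0.05, the pseudogene ASNSP1, against 0.154% of 17514 genes. ASNSP1 alone also passed the threshold of the study's methods, applied to the edgeR fit, against 0.56% of genes. At an unadjusted p under 0.05 there were 7 members, 6 higher and ALDH18A1 lower, against 10.9% of genes. For 8 members the MsOc3HBC and DMSO libraries did not overlap, 7 higher and 1 lower, against 18.3% of genes. Their median log2 fold change was 0.32, beside 0.012 for all genes tested. DESeq2 called 4 members, ASNS, ASNSP1, PSAT1 and MTHFD2, against 0.862% of genes. The same 4 passed edgeR's test once replicate 3 of MsOc3HBC was left out, against 0.421% of genes. Of the 6 fits without 1 library, this was the only 1 in which ASNS, PSAT1 or MTHFD2 passed. Their edgeR adjusted p reached 0.606, 0.794 and 0.679 in the others, and ASNSP1 passed in 3 of the 6.

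**Figure D2:**
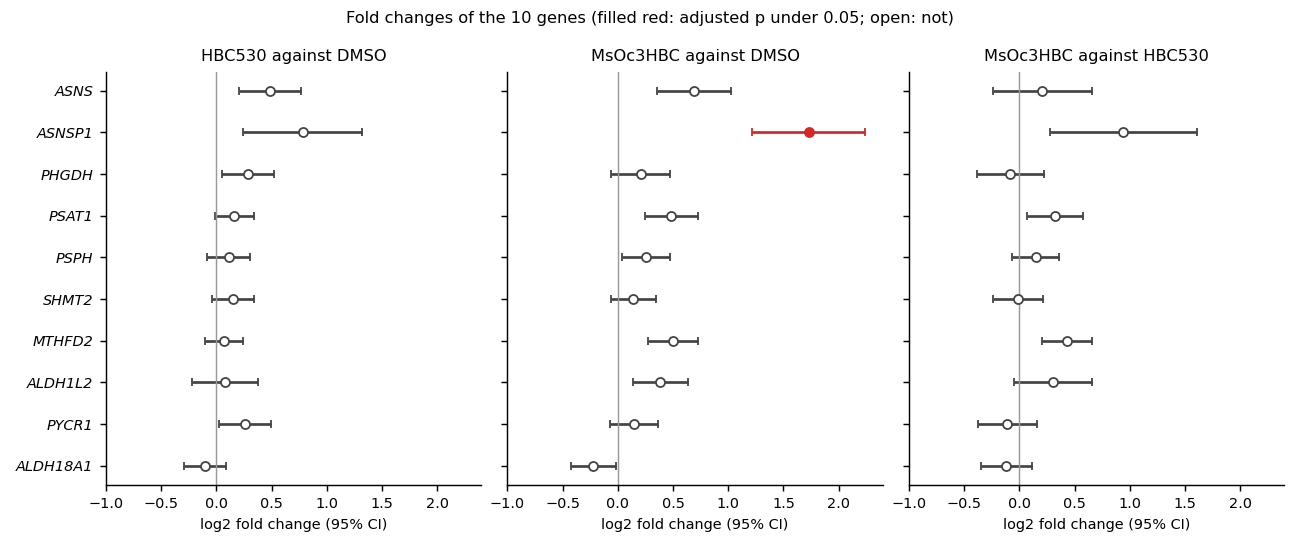
Log2 fold change of each of the 10 genes (horizontal axes) with its 95% confidence interval from the edgeR fit, in 3 comparisons of 3 libraries against 3. Filled red marks an adjusted p under 0.05, reached only by ASNSP1 in MsOc3HBC against DMSO at 1.73, and 9 of the 10 points lie above 0 in both comparisons with DMSO.

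ASNS (ENSG00000070669) lies on the minus strand of chromosome 7 at 97852118 to 97872542 (GRCh38, as for all gene positions given here). Its transcript was measured at 168, 166 and 184 CPM with DMSO, at 212, 218 and 295 CPM with HBC530 and at 248, 229 and 356 CPM with MsOc3HBC, in replicates 1 to 3. Every ligand library was above every DMSO library, and the ligands overlapped each other. The log2 fold change against DMSO was 0.48 with HBC530 (SE 0.126, 95% interval 0.20 to 0.76, edgeR adjusted p = 0.751). With MsOc3HBC it was 0.69 (SE 0.151, interval 0.36 to 1.02, edgeR adjusted p = 0.142). Replicate 3 of each ligand was the highest library of its group. Without it the difference was 0.32 with HBC530 (adjusted p = 0.312) and 0.47 with MsOc3HBC (edgeR adjusted p = 0.0240), so that the MsOc3HBC difference was smaller but passed the test. No other fit without 1 library passed with MsOc3HBC (edgeR adjusted p up to 0.606). DESeq2 also passed it with MsOc3HBC (adjusted p = 0.00312). With HBC530 the test was passed only when no filter on low counts was applied (edgeR adjusted p = 0.00441).

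ASNSP1 (ENSG00000248498) is annotated as a transcribed unprocessed pseudogene of ASNS, on the minus strand of chromosome 8 at 46579213 to 46614523. It had 31, 42 and 40 raw counts with DMSO, 49, 58 and 55 with HBC530 and 97, 93 and 80 with MsOc3HBC. Scaled for library size, these were 0.676, 0.701 and 0.641 CPM, then 0.933, 1.00 and 1.67 CPM, then 2.17, 1.70 and 2.99 CPM. The 3 treatments did not overlap, with MsOc3HBC highest and DMSO lowest. ASNSP1 rose with MsOc3HBC by a log2 fold change of 1.73 (SE 0.232, 95% interval 1.22 to 2.24, edgeR adjusted p = 0.0142). With HBC530 the difference was 0.79 (SE 0.243, interval 0.25 to 1.32, adjusted p = 0.751), or 0.53 without replicate 3 of HBC530. The call with MsOc3HBC was lost without DMSO replicate 1 (edgeR adjusted p = 0.175), without DMSO replicate 3 (0.103) and without MsOc3HBC replicate 1 (0.0577), while its log2 fold change stayed between 1.52 and 1.92 in the fits without 1 library.

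The sequences of the pseudogene and of ASNS were compared, since reads of a shared stretch cannot be assigned to either. The ASNSP1 transcript of GENCODE v44 is 1939 bases long, and 97.0% of it aligned to ASNS transcripts. In the best-scoring alignment 948 of 1047 bases were identical (90.5%). The longest run shared without a mismatch was 76 bases, and 0 of 1840 windows of 100 bases were identical to ASNS. How reads matching both were treated beyond the counting of unique hits was not given in the sources used here, so the count of the pseudogene is uncertain.

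ASNSP1 counts amounted to 0.402, 0.422 and 0.349% of the ASNS count with DMSO, to 0.440, 0.461 and 0.565% with HBC530 and to 0.875, 0.741 and 0.839% with MsOc3HBC. All MsOc3HBC libraries were above all others, and the mean with MsOc3HBC was 2.09 times that with DMSO, compared with 1.25 times for HBC530. With the counts of both genes added into 1 feature, its log2 fold change against DMSO was 0.49 with HBC530 (edgeR adjusted p = 0.751) and 0.70 with MsOc3HBC (edgeR adjusted p = 0.141), and 0 members were then called with either ligand.

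PHGDH (ENSG00000092621, chromosome 1 at 119659798 to 119744215, plus strand) catalyses the first step of serine synthesis. It was at 569, 662 and 684 CPM with DMSO, 720.4, 745 and 872 CPM with HBC530 and 689, 664 and 851 CPM with MsOc3HBC. The HBC530 libraries lay above the DMSO libraries, and the MsOc3HBC libraries overlapped them. Its log2 fold change was 0.29 with HBC530 (SE 0.105, edgeR adjusted p = 0.751) and 0.21 with MsOc3HBC (SE 0.123, edgeR adjusted p = 0.556). Without replicate 3 of MsOc3HBC the latter was 0.09.

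PSAT1 (ENSG00000135069, chromosome 9 at 78297143 to 78330093, plus strand) transfers the amino group in the second step. Its levels were 322, 294 and 304 CPM with DMSO, 336, 339 and 354 CPM with HBC530 and 386, 409 and 492 CPM with MsOc3HBC. The 3 treatments did not overlap, in the order DMSO, HBC530, MsOc3HBC. The log2 fold change was 0.16 with HBC530 (SE 0.0799, edgeR adjusted p = 0.751) and 0.49 with MsOc3HBC (SE 0.110, 95% interval 0.24 to 0.73, edgeR adjusted p = 0.168). Leaving out replicate 3 of MsOc3HBC gave 0.37 and a call (edgeR adjusted p = 0.0346), and DESeq2 gave an adjusted p of 0.00896. No other fit without 1 library gave a call with MsOc3HBC (edgeR adjusted p up to 0.794).

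PSPH (ENSG00000146733, chromosome 7 at 56011051 to 56051604, minus strand) is the phosphatase that releases serine. It was measured at 26.9, 27.2 and 29.4 CPM with DMSO, 30.1, 28.8 and 31.3 CPM with HBC530 and 32.9, 31.1 and 35.9 CPM with MsOc3HBC. MsOc3HBC libraries were all above DMSO libraries, and HBC530 libraries overlapped both groups. The log2 fold change was 0.11 with HBC530 (edgeR adjusted p = 0.755) and 0.26 with MsOc3HBC (SE 0.0989, edgeR adjusted p = 0.401). The 3 enzymes of the serine chain therefore stood in different order against DMSO with the 2 ligands, PHGDH first with HBC530 and PSAT1 first with MsOc3HBC. Whether the order itself differs was not tested.

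SHMT2 (ENSG00000182199, chromosome 12 at 57229327 to 57234935, plus strand) was measured at 369, 390.2 and 401 CPM with DMSO, 406, 416 and 466 CPM with HBC530 and 409.7, 412 and 454 CPM with MsOc3HBC. Both ligands lay above DMSO in every library and overlapped each other. Its log2 fold change was 0.15 with HBC530 (SE 0.0873, edgeR adjusted p = 0.751) and 0.14 with MsOc3HBC (SE 0.0939, edgeR adjusted p = 0.599). These values were 0.094 and 0.090 without replicate 3 of the ligand. Genes that overlap its exons had few reads, a mean of 45.7 counts for NDUFA4L2 on the opposite strand against 19892 for SHMT2.

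MTHFD2 (ENSG00000065911, chromosome 2 at 74198562 to 74217565, plus strand) encodes the mitochondrial methylenetetrahydrofolate dehydrogenase. It was at 224, 211 and 206 CPM with DMSO, 226, 222 and 225 CPM with HBC530 and 276, 291 and 339 CPM with MsOc3HBC. The HBC530 libraries overlapped the DMSO libraries, whereas all 3 MsOc3HBC libraries were above both. The log2 fold change was 0.07 with HBC530 (SE 0.0786, 95% interval -0.10 to 0.25, edgeR adjusted p = 0.793) and 0.50 with MsOc3HBC (SE 0.103, interval 0.28 to 0.73, edgeR adjusted p = 0.118). Without replicate 3 of MsOc3HBC it was 0.41 and passed the test (edgeR adjusted p = 0.0243), as it did with DESeq2 (0.00261). No other fit without 1 library passed with MsOc3HBC against DMSO (edgeR adjusted p up to 0.679).

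ALDH1L2 (ENSG00000136010, chromosome 12 at 105019784 to 105084577, minus strand) encodes the mitochondrial 10-formyltetrahydrofolate dehydrogenase. It was measured at 37.7, 34.5 and 32.1 CPM with DMSO, 35.7, 44.05 and 29.9 CPM with HBC530 and 44.8, 51.2 and 39.6 CPM with MsOc3HBC. In each treated group replicate 2 was highest and replicate 3 lowest, whereas replicate 3 was highest for ASNS, and only MsOc3HBC lay clear of DMSO. Its log2 fold change was 0.08 with HBC530 (SE 0.135, edgeR adjusted p = 0.873) and turned to -0.08 without replicate 2 of HBC530, while it was 0.21 without replicate 3. With MsOc3HBC it was 0.38 (SE 0.113, edgeR adjusted p = 0.302). C12orf45 overlaps its exons on the opposite strand with a mean of 1061 counts against 1897 for ALDH1L2, and the strand setting of the counting was not given in the sources used here, so part of these reads may belong to the other gene.

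PYCR1 (ENSG00000183010, chromosome 17 at 81932384 to 81942412, minus strand) encodes a mitochondrial pyrroline-5-carboxylate reductase. Its levels were 197, 214 and 226 CPM with DMSO, 229.7, 239.7 and 291 CPM with HBC530 and 230.1, 221 and 254 CPM with MsOc3HBC. Only HBC530 lay clear of DMSO. The difference from DMSO was a log2 fold change of 0.26 with HBC530 (SE 0.106, edgeR adjusted p = 0.751), or 0.15 without replicate 3 of HBC530, and 0.15 with MsOc3HBC (SE 0.0987, edgeR adjusted p = 0.597), or 0.090 without replicate 3 of MsOc3HBC.

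ALDH18A1 (ENSG00000059573, chromosome 10 at 95605929 to 95656706, minus strand) encodes the bifunctional synthase that opens the route to proline and ornithine. It was at 283, 274 and 266 CPM with DMSO, 266, 268 and 232 CPM with HBC530 and 237, 253 and 215 CPM with MsOc3HBC. All MsOc3HBC libraries lay below all DMSO libraries, alone among the 10 genes. Its log2 fold change was -0.10 with HBC530 (SE 0.0870, edgeR adjusted p = 0.756) and -0.22 with MsOc3HBC (SE 0.0938, 95% interval -0.43 to -0.01, edgeR adjusted p = 0.433). Without replicate 3 of the ligand it was -0.031 with HBC530 and -0.16 with MsOc3HBC.

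The 2 ligands were then compared with each other, since they share the scaffold, the dose and the time and differ by the reactive handle. Without pairing, edgeR called 0 of the 10 members and 0% of 17397 genes. At an unadjusted p under 0.05 there were 3 members, all higher with MsOc3HBC, against 7.32% of genes, and DESeq2 called 1 member, MTHFD2 (adjusted p = 0.0328), against 0.316% of genes. For ASNSP1, PSAT1 and MTHFD2 the ligand libraries did not overlap, against 15.4% of genes. The 95% intervals of the unpaired log2 differences (MsOc3HBC minus HBC530) were -0.24 to 0.65 for ASNS, -0.38 to 0.22 for PHGDH, -0.07 to 0.36 for PSPH, -0.24 to 0.21 for SHMT2, -0.05 to 0.66 for ALDH1L2, -0.38 to 0.16 for PYCR1 and -0.35 to 0.11 for ALDH18A1. These bound the differences that the 3 libraries a group could leave unseen.

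Same-numbered HBC530 and MsOc3HBC libraries deviated together from their group means, so the replicate number was also fitted as a block. The labels number the replicates but state no pairing, so the block rests on a pairing read from these same data. Its calls hold only if that pairing is real. With the block, edgeR called 5 of the 10 members, all higher with MsOc3HBC, against 11.4% of genes. They were ASNSP1 (0.94, SE 0.169, adjusted p = 0.00523), MTHFD2 (0.42, SE 0.0559, adjusted p = 0.00168), PSAT1 (0.32, SE 0.0540, adjusted p = 0.00437), ALDH1L2 (0.31, SE 0.0581, adjusted p = 0.00614) and ASNS (0.19, SE 0.0507, adjusted p = 0.0269). The other 5 did not pass, PSPH at 0.14 (adjusted p = 0.122), ALDH18A1 at -0.12 (0.105), PYCR1 at -0.10 (0.211), PHGDH at -0.09 (0.252) and SHMT2 at -0.01 (0.916). COL1A1, a marker of other cell types, was lower with MsOc3HBC in the same fit (-0.31, SE 0.0633, adjusted p = 0.00914), and its part in these differences was not tested. Without replicate 3 of both ligands and without the block, ASNSP1, PSAT1 and MTHFD2 passed (edgeR adjusted p = 0.0102, 0.0120 and 0.00134), against 9.16% of genes.

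Within pairs of the same number, the log2 ratio of MsOc3HBC to HBC530 for MTHFD2 was 0.29, 0.39 and 0.59. For PSAT1 it was 0.20, 0.27 and 0.47, and for ASNSP1 it was 1.22, 0.76 and 0.84. For ASNS it was 0.23, 0.08 and 0.27, so that 1 of the 3 pairs showed almost no difference. Altogether 6 members were higher with MsOc3HBC in all 3 pairs, and PHGDH and ALDH18A1 were lower in all 3. The same sign in all 3 pairs was found for 46.1% of the 17397 genes tested.

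**Figure D3:**
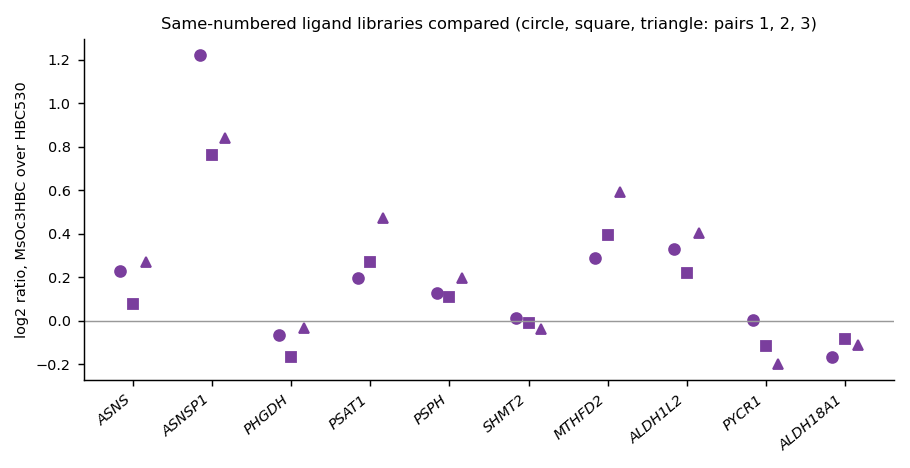
Log2 ratio of CPM between the MsOc3HBC and HBC530 libraries of the same replicate number (vertical axis) for each of the 10 genes, with circle, square and triangle for pairs 1 to 3. ASNS, ASNSP1, PSAT1, PSPH, MTHFD2 and ALDH1L2 lie above 0 in all 3 pairs, PHGDH and ALDH18A1 below it, and SHMT2 and PYCR1 on both sides.

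Several enzymes have a paralog, often in another compartment, and the ratio of both was taken within each library. MTHFD2 was present at 47.2, 44.3 and 42.6 times the CPM per kilobase of MTHFD2L with DMSO, at 50.2, 47.1 and 42.1 times with HBC530 and at 52.7, 62.7 and 53.3 times with MsOc3HBC. MTHFD2L itself differed from DMSO by a log2 fold change of 0.17 with MsOc3HBC (edgeR adjusted p = 0.635). All MsOc3HBC ratios were above all others. SHMT2 to its cytosolic counterpart SHMT1 gave a mean ratio of 9.13 ± 0.289 with DMSO, 10.5 ± 1.06 with HBC530 and 11.4 ± 1.10 with MsOc3HBC (SD, n = 3), and both ligands lay above DMSO in every library. SHMT1 had a log2 fold change of -0.17 with MsOc3HBC (adjusted p = 0.488). PYCR1 to PYCR3, the cytosolic reductase, gave 4.70 ± 0.409, 5.03 ± 0.740 and 6.04 ± 0.631 in the same order, and the ratios of the ligands overlapped. PYCR3 had a log2 fold change of -0.22 with MsOc3HBC against DMSO (edgeR adjusted p = 0.508), beside 0.15 for PYCR1. ALDH1L1, the cytosolic counterpart of ALDH1L2, had at most 0.560 CPM in any library, and the ratio to it varied from 99.5 to 230.3.

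The neighbouring pathway genes were taken from 5 lists of 61 genes in all, of which 56 passed the filter on low counts in each comparison. With HBC530, 1 of these 56 was called, higher, against the 0.017% of all genes given above, and with MsOc3HBC 3 were called, all higher, against 0.154%. Between the ligands 0 were called by edgeR without the block (3 by DESeq2), with 6 at an unadjusted p under 0.05, 3 in each direction. Their median log2 fold changes were 0.04 with HBC530 and 0.06 with MsOc3HBC, beside 0.16 and 0.32 for the 10 synthesis genes and 0.0046 and 0.012 for all genes.

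Among 13 regulators of the ATF4 pathway, ATF3, a stress-induced transcription factor, was called with both ligands. Its levels were 36.7, 35.6 and 33.2 CPM with DMSO, 59.1, 55.5 and 61.3 CPM with HBC530 and 61.8, 62.7 and 62.4 CPM with MsOc3HBC. The ligands lay far above DMSO, with log2 fold changes of 0.74 (SE 0.0885, edgeR adjusted p = 0.0367) and 0.83 (SE 0.0889, edgeR adjusted p = 0.00339), and they did not differ detectably from each other (0.09, 95% interval -0.10 to 0.27). The call with HBC530 was lost without any 1 of DMSO replicates 1 to 3 or HBC530 replicates 1 and 2 (edgeR adjusted p = 0.0589 to 0.334), and that with MsOc3HBC was kept in each of the 6 fits without 1 library. DDIT3, the stress factor CHOP, was called with MsOc3HBC at 0.82 (SE 0.136, edgeR adjusted p = 0.04998), just under the threshold, and lost without any 1 of DMSO replicates 1 to 3 or MsOc3HBC replicate 1 (adjusted p = 0.220 to 0.302). With HBC530 its log2 fold change was 0.44 (adjusted p = 0.751), or 0.16 without replicate 3 of HBC530, which had 5.76 CPM against 3.37 and 3.35 CPM in the other HBC530 libraries. Exons of MARS1 overlap those of DDIT3 on the opposite strand, so its count is uncertain without a stated strand setting.

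ATF4 itself is added here after its values were seen, because it is the named regulator of the list. It was measured at 602, 661 and 684 CPM with DMSO, 787, 763 and 963 CPM with HBC530 and 947, 926 and 1138 CPM with MsOc3HBC. All ligand libraries were above all DMSO libraries, with log2 fold changes of 0.37 (SE 0.106, edgeR adjusted p = 0.751) and 0.63 (SE 0.112, edgeR adjusted p = 0.0728), neither of which passed. Without replicate 3 of MsOc3HBC the latter was 0.53 and passed (edgeR adjusted p = 0.00830), as it did with DESeq2 (4.96e-05). No other fit without 1 library passed with MsOc3HBC against DMSO (edgeR adjusted p up to 0.433). Between the ligands the partners CEBPG and CEBPB had the smallest p of the list, with log2 differences of 0.36 (SE 0.0844) and 0.20 (SE 0.0935). The median log2 fold change of the 13 regulators was 0.15 with HBC530 and 0.08 with MsOc3HBC. Against DMSO, 9 of the 13 lay above 0 and 4 below with HBC530, and 10 above and 3 below with MsOc3HBC.

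Of 10 serine and glycine genes tested, CTH, which makes cysteine from cystathionine downstream of serine, rose with MsOc3HBC. It was at 23.6, 25.1 and 25.0 CPM with DMSO, 30.6, 29.1 and 25.2 CPM with HBC530 and 36.7, 38.2 and 41.9 CPM with MsOc3HBC. The MsOc3HBC libraries were above all others, at a log2 fold change of 0.67 against DMSO (SE 0.0957, edgeR adjusted p = 0.0235). The call was lost without any 1 of DMSO replicates 1 to 3 or MsOc3HBC replicate 1 (adjusted p = 0.113 to 0.218). With HBC530 it was 0.21 on the log2 scale (adjusted p = 0.751). The smallest p with HBC530 in this list belonged to SDSL (0.45, SE 0.192) and GCAT (0.25, SE 0.119), and neither passed after adjustment. These were 0.19 and 0.15 without replicate 3 of HBC530.

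The remaining lists held no called gene in the unpaired edgeR fits of 3 libraries against 3 with the default filter and TMM scaling. Of 12 asparagine, aspartate and glutamate genes, ASS1 (0.43, SE 0.160) was among the smallest p with HBC530. With MsOc3HBC the smallest were those of the aminotransferase GPT2 (0.35, SE 0.0875) and the glutamine synthetase gene GLUL (-0.22, SE 0.0883). Between the ligands they were GPT2 (0.19, SE 0.0792) and GOT2 (-0.14, SE 0.0810). Of 15 folate one-carbon genes, FPGS (0.12, SE 0.0968) and MTHFD1 (-0.10, SE 0.0852) came first with HBC530, and the folate carrier SLC19A1 (-0.30, SE 0.0909) and MTHFD1L (0.20, SE 0.0862) with MsOc3HBC. SLC19A1 (-0.35, SE 0.0808) and FPGS (-0.28, SE 0.0777) came first between the ligands. Of 6 proline and ornithine genes, ALDH4A1 (0.16, SE 0.105) was among the first with HBC530 and PYCR3 (-0.22, SE 0.114) with MsOc3HBC, and PYCR3 (-0.37, SE 0.0882) and PEPD (-0.15, SE 0.0897) came first between the ligands. In the blocked fit between the ligands 12 of the 56 were called, against 11.4% of all genes, 7 higher with MsOc3HBC and 5 lower. Among them were CTH, CEBPG, ATF4 and DDIT3 higher and SLC19A1, FPGS and PYCR3 lower. Of the 13 ATF4 pathway regulators 3 were called higher and 1 lower, the latter ATF5 (-0.28, SE 0.0599, edgeR adjusted p = 0.0113).

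**Figure D4:**
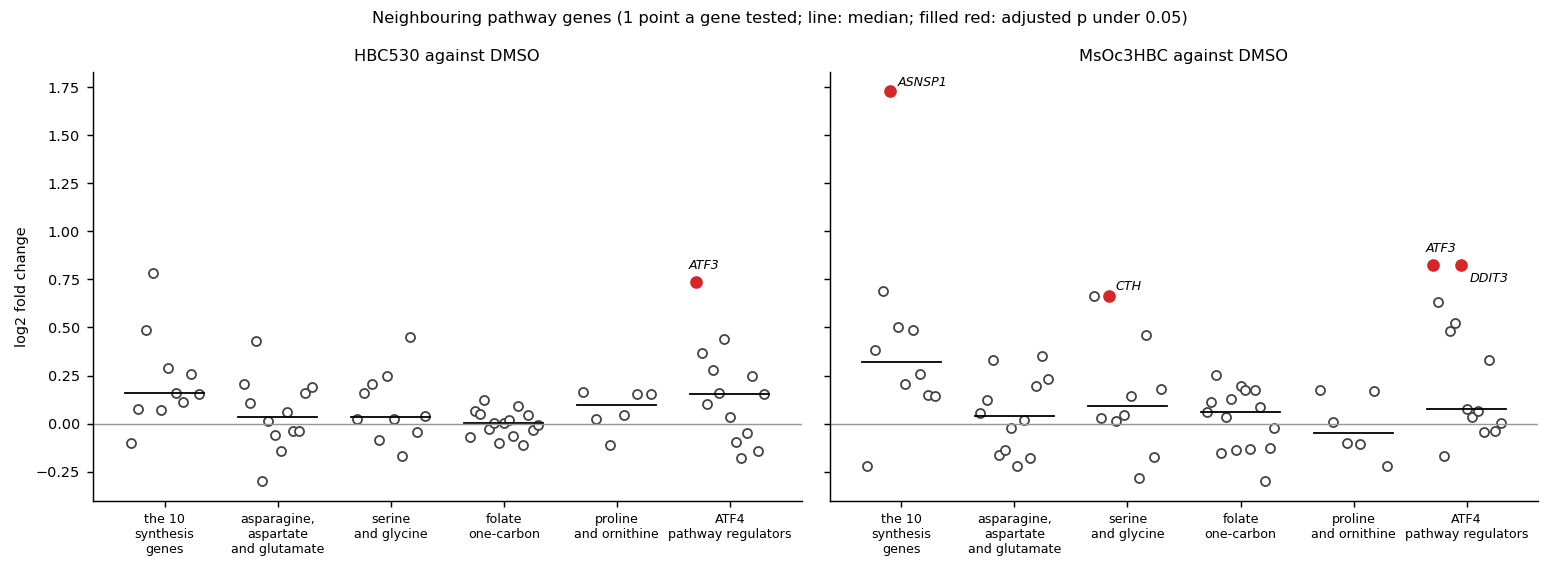
Log2 fold change (vertical axis) of each gene tested, by list, with HBC530 (left) and MsOc3HBC (right) against DMSO, with a line at the median of each list and filled red for an adjusted p under 0.05. The 10 synthesis genes have medians of 0.16 and 0.32, and the named points are ASNSP1, CTH, ATF3 and DDIT3.

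For ASNS, PHGDH and PYCR1 the genes with the most similar pattern over the 9 libraries were sought among 18031 others, as the smallest root mean square difference between profiles of log2 CPM minus the DMSO mean. Nearest to ASNS were TTLL1 (0.104), PCK2 (0.106), the mitochondrial phosphoenolpyruvate carboxykinase gene, and SULT2B1 (0.106). Nearest to PHGDH were GNG4 (0.0348), ZNF784 (0.0365) and FNDC4 (0.0384). Nearest to PYCR1 were B3GALT6 (0.0386), CTNNBIP1 (0.0392) and HEXDC (0.0398). TTLL1, PCK2 and SULT2B1 all had, like ASNS, their highest value of each ligand in replicate 3. On the log2 scale these were 0.64, 0.78 and 0.90 with HBC530 and 0.91, 0.87 and 0.90 with MsOc3HBC. The genes were selected for likeness over these same libraries, so the shared peak follows from the selection. These are descriptions of likeness in 9 libraries that share depth and treatment.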

How the data were processed

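HEK293T cells were treated in 3 biological replicates per condition and the values were analysed as deposited. According to the labels and methods, the authors used Trimmomatic 0.36 for trimming and STAR 2.5.2b for alignment to GRCh38, and counted unique gene hits with featureCounts of Subread 1.5.2. The annotation release, the strand setting and the counting of read pairs were not given in the sources used here. The count files deposited by the authors hold raw counts of 57500 genes per library. The authors' tables made with DESeq2 hold their log2 fold changes and p-values, which were not used, and signal columns of counts normalised by size factors, which were not used either. These tables served only for gene names (17453), and 56410 of the 57500 IDs matched the reference names.

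Counts were compared 3 against 3 in R 4.3.3 with edgeR 4.0.16 (filterByExpr at its defaults, TMM, quasi-likelihood F test, Benjamini-Hochberg adjustment over all genes tested), with SE and 95% intervals from the fit. An adjusted p under 0.05 was a call. The unpaired fit was tested on simulated libraries that held no pairing and no outlying library. That simulation does not bear on the blocked fit or on the fits with libraries left out. Alternatives were DESeq2 1.42.0, RLE and upper-quartile scaling, no filter, a minimum of 10 counts per library, 1 fit over all 9 libraries, a block for the replicate, limma-voom (limma 3.58.1), each library left out, replicate 3 of both ligands left out, and ASNS and ASNSP1 counts added. The members and gene lists were chosen with earlier results of these data known.

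Replicate numbers come from the sample labels. Deviations of same-numbered libraries from their group means correlated across 18041 genes at 0.167, 0.368 and 0.433 between the ligands, all above 0.1, so that the numbers were taken to pair them. For HBC530 and DMSO these were 0.087, 0.013 and 0.172, and for MsOc3HBC and DMSO -0.111, 0.0097 and 0.041, so that they were not taken to pair. The value of 0.167 for replicate 1 of the ligands was no higher than the 0.172 for replicate 3 of HBC530 and DMSO. Deviations in a group of 3 sum to 0, so the 3 correlations of a comparison are not independent. Totals of 28056929 to 62205366 counts set the precision, with the 31 to 97 counts of ASNSP1 the least precise of the 10 members. Named were the 10 members, list genes with an adjusted p under 0.05 or else the 2 smallest p of a list, named paralogs, and the 3 genes nearest in profile to ASNS, PHGDH and PYCR1. ATF4 and ATF5 were added after their values were seen. The results of 3 genes that these choices include are not reported here. Likeness used log2 CPM with a prior count of 1. Gene positions are those of the files, and promoter sequences are from RefSeq GRCh38.p14.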

Additional observations from a re-analysis of the deposited data

Results flagged for a closer look

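The difference between the ligands, tested as MsOc3HBC against HBC530 in the edgeR fit with the replicate number as a block and Benjamini-Hochberg adjustment over all genes, passed an adjusted p of 0.05 for 5 of the 10 genes. The log2 differences were 0.94 for ASNSP1, 0.42 for MTHFD2, 0.32 for PSAT1, 0.31 for ALDH1L2 and 0.19 for ASNS, each positive in all 3 pairs of libraries. The share of all genes passing the same test was 11.4%. The block rests on a pairing of replicate numbers that was read from these same data. Without the block, 0 of the 10 passed in edgeR with all libraries, while DESeq2 called MTHFD2 and gave no adjusted p for ASNSP1. Also without the block, edgeR called ASNSP1, PSAT1 and MTHFD2 when replicate 3 of both ligands was left out. ALDH1L2 and ASNS passed in neither of these unpaired fits. Groups of 3 libraries were too small for a test of single outlying libraries.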

How the results depend on the processing

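With HBC530 against DMSO, 0 members were called by edgeR except 1 without a filter on low counts, and the count of neighbouring pathway genes ranged from 0 to 1 when each library was left out, beside 1. With MsOc3HBC against DMSO, 1 member and 3 neighbouring genes became 4 and 7 with DESeq2, 4 and 6 without a filter and 4 and 6 with the replicate block, although the numbers did not pair these libraries. Members fell to 0 when the ASNS and ASNSP1 counts were added, because the called pseudogene was then no feature of its own. Leaving out each library gave 0 to 4 members and 1 to 5 neighbouring genes. All genes called rose from 27 to 151 with DESeq2, 250 without a filter and 149 with the block, and for HBC530 from 3 to 24, 52 and 16.

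Between the ligands, 0 members and 0 neighbouring genes became 5 and 12 with the replicate block, 1 and 3 with DESeq2, and 3 and 12 without replicate 3 of both ligands. The block left the counts of members and neighbouring genes with HBC530 at 0 and 1. Log2 fold changes that turned sign when 1 library was left out ranged, between the ligands, from -0.0113 to 0.38 for ASNS, -0.20 to 0.0078 for PHGDH, -0.18 to 0.0048 for PYCR1, -0.0592 to 0.0534 for SHMT2 and -0.0635 to 0.30 for ALDH1L1. With HBC530 against DMSO they ranged from -0.0803 to 0.21 for ALDH1L2, -0.0461 to 0.0694 for MTHFD2L and -0.26 to 0.20 for ALDH1L1, and with MsOc3HBC from -0.13 to 0.33 for ALDH1L1. No member reversed with MsOc3HBC against DMSO in any of 149 alternative values. DDIT3 with MsOc3HBC was called in 5 of 15 alternatives. Apart from the added counts, the cause of these changes was not tested.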
